A study of Mus musculus with 441 samples.

Results

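Bulk RNA libraries of mouse embryonic stem cells were set against the average of single cells from the same culture, in 3 cultures. The members were chosen by the labels of culture, genotype and library type, and comprised 5 bulk libraries and 361 single cells, which entered the comparison as 4 plate means, so 9 samples in all. The series holds 441 samples, the others being neural precursor cells and ChIP-seq libraries. The first culture was the v6.5 line in serum with LIF (leukaemia inhibitory factor), with 2 bulk libraries and 183 cells on a pair of plates (90 and 93 cells). The second was v6.5 in 2i+LIF, a medium with inhibitors of MEK and GSK3, with 1 bulk library and 94 cells. The third was a Dgcr8 knockout made in the v6.5 background and kept in serum+LIF, with 2 bulk libraries and 84 cells. All 3 cultures derive from 1 parental line and received LIF, and Dgcr8 encodes the partner of Drosha that processes primary microRNAs. Cells were captured on microfluidic C1 chips, amplified as whole transcriptomes with SMART-Seq chemistry and sequenced with 25-base paired reads after Nextera XT tagging. The records give this same C1 protocol for the bulk samples too, with no separate account of how a bulk library was made, so the bulk preparation is uncertain. Bulk and cell values come from separate tables, and sample titles give a date only for the cells of serum plate 2. The parts of table, preparation and date in any difference cannot be told apart.

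Bulk RNA-seq reads the summed RNA of a population, weighted by how much RNA each cell holds. A mean over single cells weights cells equally and passes through reverse transcription and amplification of the RNA of 1 cell at a time. Messenger RNAs with a poly(A) tail are the usual template of oligo(dT)-primed amplification, while replication-dependent histone messages end in a stem-loop and many small structured RNAs carry no tail. Pluripotent stem cells divide fast, run high glycolysis and hold abundant translation machinery, so genes of these groups are among the most abundant messages. In a bulk library, fewer cells of a type and less RNA per cell cannot be told apart.

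The files give TPM (a length-normalised share of transcripts), so read depth is unknown. At a TPM of at least 1, bulk libraries held between 6763 and 9899 genes of the 16970 distinct names and plate means between 8231 and 12146. No pair of cells had identical columns. The 8 embryonic stem cell markers were at a TPM of at least 1 in each of the 9 samples. The summed TPM of the 22 measured fibroblast and feeder markers was 17.5 to 101 in bulk and 15.3 to 116 in plate means. Col1a2, Col5a2, Dcn, Prrx1 and Lox were at 0 in every sample. The highest members were Acta2 in serum (39.9 and 54.3 in bulk, 32.3 and 11.9 on the plates) and Fstl1 in the knockout (84.1 and 78.4 in bulk, 95 on the plate). The 7 measured primitive endoderm markers summed to at most 1.19 TPM in bulk and 2.24 in plate means. Dgcr8 was at 10.6 and 10.3 TPM in serum bulk, 4.66 in 2i bulk, and 4.03 and 2.20 in knockout bulk, so it was lowest in the knockout. Its plate means were 72.5 and 27 (serum), 34 (2i) and 16 (knockout), so the knockout was again lowest, while serum plate 2 lay below 2i. Dgcr8 reads outside a deleted exon would still be counted, so a level above 0 in the knockout checks little.

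Across the 10366 genes tested, a bulk library and a plate mean of its own culture were less alike than replicates of either kind. Pearson's r of log2(TPM + 1) across genes was 0.988 between the serum bulk libraries, 0.985 between the knockout ones and 0.984 between the serum plates. Between bulk and cells it was 0.865 to 0.885 in serum, 0.920 in 2i and 0.886 to 0.892 in the knockout. Genes are not independent replicates, so these values are descriptions. The 2-fold line was passed by 1.52% to 3.01% of genes between replicates, against 30.3% to 39.8% between serum bulk and cells, 72.7% in 2i and 49.1% to 50.8% in the knockout. Among bulk libraries, each plate mean was nonetheless most like those of its own culture. All 183 serum cells and all 94 2i cells, taken singly, also correlated best with their own bulk. Among knockout cells, 75 of 84 did so by Pearson's r and 81 by Spearman's rho, and the others were closest to 2i bulk. Some samples were closer to another culture of their own library type. The knockout plate had r of 0.906 with the 2i plate, above 0.892 and 0.886 with its own bulk. Serum plate 1 had 0.892 with the 2i plate, above 0.873 and 0.885 with its own bulk. The serum bulk libraries had 0.918 and 0.919 with 2i bulk, above their 0.865 to 0.885 with the serum plates. Replicates aside, the 2i plate, 2i bulk and knockout bulk were closest to their own culture, and serum plate 2 was mixed. Averaging more cells brought the likeness close to a plateau: r with own bulk was 0.719 for 1 knockout cell, 0.861 for 10, 0.892 for 40 and 0.893 for 84. In 2i the same values were 0.799, 0.894, 0.916 and 0.920 (94 cells).

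RNA mass was spread over more genes in averaged cells in 2i and the knockout, while in serum the measures were mixed. The 100 most abundant genes took 62.9% to 67.3% of TPM in the 5 bulk libraries. They took 61.5% and 60.7% on the serum plates, 41.9% on the 2i plate and 47.6% on the knockout plate. The median gene was higher in cells than in bulk, by 0.38 (serum), 1.45 (2i) and 0.94 (knockout) on the log2 scale. A second scale was therefore used beside TPM as deposited: log2 values centred on the median tested gene of each sample, which takes 0.62, 1.69 and 1.02 off the difference in the 3 cultures. As deposited, 3801 genes were higher in cells in serum (36.7% of those tested, limma, adjusted p under 0.05) and 1314 lower (12.7%). In 2i 7968 were higher (76.9%) and 207 lower (2.00%), and in the knockout 5856 were higher (56.5%) and 462 lower (4.46%). Centred, the split turned: 1989 higher (19.2%) and 3513 lower (33.9%) in serum, 617 (5.95%) and 2100 (20.3%) in 2i, while the knockout had 1712 (16.5%) and 2525 (24.4%). The serum total of 5115 calls fell to 3394 without serum bulk library 2. The 2i culture has 1 sample on each side and the knockout 1 plate, which the fit assumes to vary like the other groups. All p-values reflect how far these particular samples scatter, and that scatter may be purely technical.

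In all 3 cultures, 3078 genes were higher in cells (29.7% of those tested) and 113 lower (1.09%) as deposited. Centred, 238 were higher (2.30%) and 1119 lower (10.8%). The 238 and the 113 were called in all 3 cultures on both scales. The total as deposited, 3191, was 2028 without serum bulk library 2. Differences of the 3 cultures, which share no sample, correlated across genes with r of 0.63 (serum and 2i), 0.67 (serum and knockout) and 0.58 (2i and knockout). A smaller set of 537 genes was called higher in cells in 1 culture and lower in another (228 centred). At the edge of the calls, Psma8 was just inside the higher set (largest adjusted p of the 3 cultures 0.04998) and Aen just outside (0.05002). Mcm5 was just inside the lower set (0.0496).

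**Figure D1:**
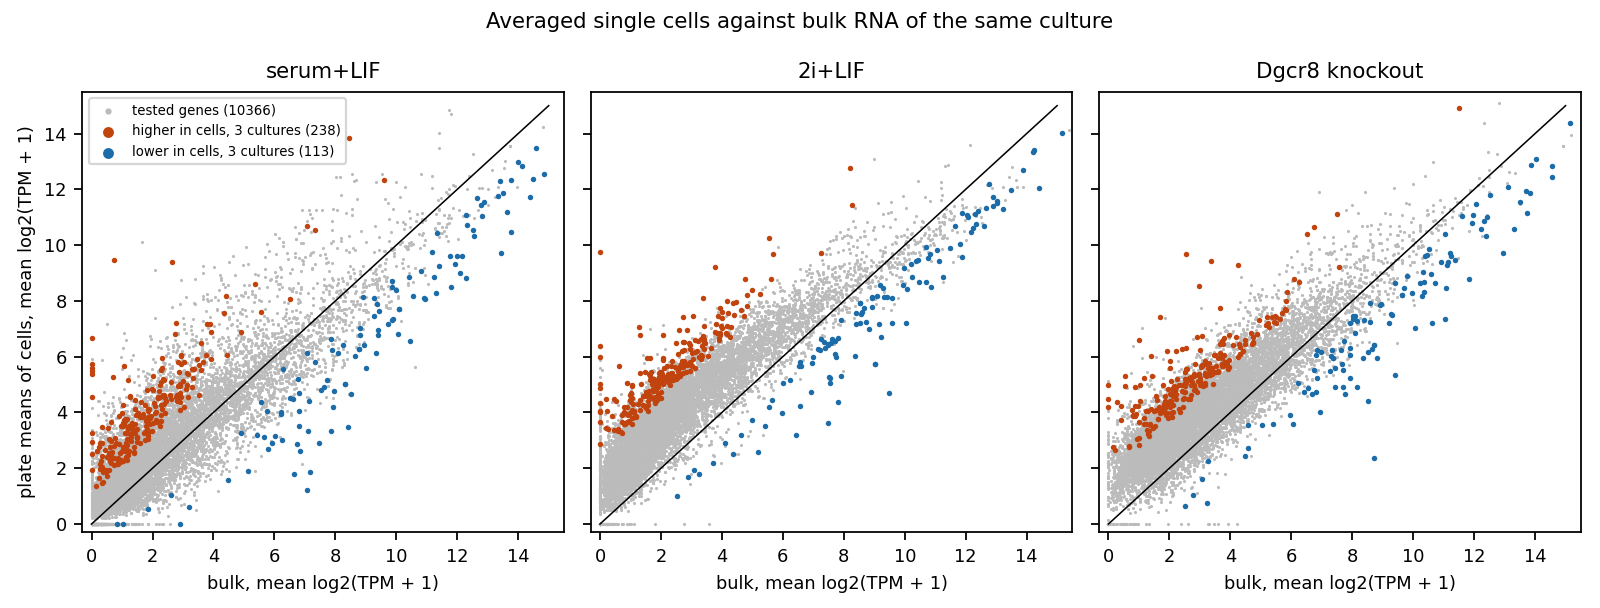
Each point is 1 of 10366 genes. The x axis is its mean log2(TPM + 1) over bulk libraries and the y axis the mean over plate means, per culture, with the line of equality. Red-orange marks the 238 genes higher and blue the 113 genes lower in cells in all 3 cultures on both scales. Most points of 2i and the knockout lie above the line, while the blue points lie mainly at high bulk levels.

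The 238 and the 113 genes differed in level. Both sets were chosen on these same values, so their levels and detection are descriptions and support nothing by themselves. The median bulk level was 3.97 TPM for the 238 genes, against 4.45 over all tested genes, and their median plate mean was 27.1 against 9.22. They were found at a TPM of at least 1 in a median of 95.6% of cells, against 75.9% over all tested genes. The 113 genes had a median bulk level of 494 TPM and a median plate mean of 137, and were found in a median of 100% of cells. In none of the 238 did a single cell hold more than 50% of the summed TPM of any plate.

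Replication-dependent histone genes, which encode the core histones packed onto new DNA in S phase, were mostly higher in cells as deposited. Of 44 tested, the serum culture called 37 higher (84.1%, against 36.7% of all genes) and 2i called 36 (81.8%, against 76.9%). The knockout called 32 (72.7%, against 56.5%), and none was lower in any culture. Centred, 27, 14 and 18 were higher, against 19.2%, 5.95% and 16.5% of all genes. On that scale 0, 2 and 0 were lower, against 33.9%, 20.3% and 24.4%. All 3 cultures called 25 of the 44 higher as deposited. However, 19 of the 44 (43.2%, against 13.4% of all genes) had a mean bulk TPM under 1. They passed the filter on low values only through the cells, where a member has to be high. The counts over the 44, per culture and in all 3, thus support nothing by themselves. Of the 25 with a mean bulk TPM of at least 1, 11 were higher in all 3 cultures as deposited (44%, against 27.4% of all such genes) and 2 centred (8%, against 2.37%). Hist1h2ap, an H2A gene, was at 4.59 and 5.85 TPM in serum bulk, 12.8 in 2i bulk, and 10.3 and 30.5 in knockout bulk. Its plate means were 898 and 513, 599.8 and 627. The ranges of bulk and cells were far apart in each culture, with log2 differences of 6.78 (SE 0.44), 5.44 (SE 0.62) and 5.06 (SE 0.54), and adjusted p of 7.83e-06, 3.99e-04 and 2.14e-04. Hist1h2an and Hist1h3b, an H2A and an H3 gene, were listed at 0 in all 5 bulk libraries. Plate means of Hist1h2an were 48.1 and 35.1 (serum), 28.4 (2i) and 31 (knockout), and it reached a TPM of 1 in 31% to 60% of the cells of a plate. Plate means of Hist1h3b were 12.6, 5.81, 31.6 and 21.1. Only 5 names were listed at 0 in all bulk libraries and at a mean TPM of at least 1 in all plates, the other 3 being Gm12238, Rnu1b2 and AK197526, and 0 names showed the converse. Hist1h2ak, Hist1h2ah and Hist1h2ab behaved likewise, at 0 in both serum bulk libraries and at 16.7 to 66.2 on the serum plates.

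The replacement histones, most of which are made outside S phase with poly(A) tails, were mixed. Of 9 tested, 4 were higher in cells in all 3 cultures (2 without knockout bulk library 1) and 0 lower as deposited. These shares were 44.4% and 0%, against 29.7% and 1.09% of all genes. Centred, 1 was called each way, against 2.30% of all genes higher and 10.8% lower. H2afx, the variant phosphorylated at DNA breaks, was at 1.57 and 0.538 TPM in serum bulk and at 66 and 32.7 on the serum plates, and its knockout call was lost without knockout bulk library 1 (adjusted p = 0.0649). H2afv, whose values the tables also list under H2afz, was the most abundant and went the other way, from 16030.4 and 16051 TPM in serum bulk to 4186 and 4428 on the plates. In the knockout H2afv was at 2902 and 3068 in bulk and 2973 in cells (difference -0.01, adjusted p = 0.984).

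Of 36 small structured RNAs listed, 6 were tested. All 6 were higher in cells in each culture as deposited, against 36.7% (serum), 76.9% (2i) and 56.5% (knockout) of all genes. Centred, 5 (serum), 2 (2i) and 5 (knockout) were higher, against 19.2%, 5.95% and 16.5% of all genes. In all 3 cultures 2 were higher on both scales, Rn4.5s and Rpph1, which had a mean bulk TPM of at least 1. The other 4 passed the filter on low values only through the cells, where a member has to be high. The counts over the 6 thus support nothing by themselves. Rn4.5s, a small RNA transcribed by RNA polymerase III, was at 0.642 to 2.45 TPM in the 5 bulk libraries and at 594 and 829.8 (serum), 132 (2i) and 64.2 (knockout) on the plates. Its log2 differences were 8.71 (SE 0.30), 5.79 (SE 0.42) and 4.63 (SE 0.37), with adjusted p between 1.64e-06 and 1.31e-04. Rpph1, the RNA of ribonuclease P, was at 7.44, 6.05, 47.7, 10.5 and 8.25 in bulk (2 serum, 1 2i, 2 knockout) and at 64.1, 68, 437 and 697 on the plates. No bulk value reached the plate mean of its culture. Of 15 host genes of small nucleolar RNAs and nuclear noncoding RNAs, 3 passed the filter only through the cells. In all 3 cultures 10 of the 15 were higher as deposited (66.7%, against 29.7% of all genes) and 1, Snhg12, centred (against 2.30%). Of the 12 with a mean bulk TPM of at least 1, 8 were higher as deposited (66.7%, against 27.4% of all such genes). Snhg12, whose values the tables also list under Snord99, was at 2.82 to 5.64 in bulk and 15.6 to 46.5 in cells.

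Among protein-coding genes outside the histones, Chchd10, which encodes a mitochondrial protein of the intermembrane space, had the widest gap in all 3 cultures under the rule for named genes. It was at 1.16 and 1.01 TPM in serum bulk, 7.35 in 2i bulk, and 2.28 and 2.17 in knockout bulk. On the plates it was at 67.3 and 36.8, 173 and 172, and it was at a TPM of at least 1 in every cell. The log2 differences were 4.61 (SE 0.29), 4.38 (SE 0.41) and 5.75 (SE 0.36). AB352479, 2610028H24Rik and S60130 were also among the 10 named. AB352479 was listed at 0 in 4 of 5 bulk libraries (32.8 TPM in knockout bulk library 1) and stood at 91.7, 110.4, 865 and 819 on the plates. Centred, 2610028H24Rik was not called in 2i, nor S60130 in 2i and the knockout. The calls for S60130 in serum and the knockout were lost without serum bulk library 1, serum plate 2 or either knockout bulk library (adjusted p 0.0668 to 0.199). Park2, which encodes the ubiquitin ligase parkin, stood at 64.5 and 119 TPM in serum bulk but at 5153 and 26524 on the serum plates, and at 1278 and 1258 in 2i and knockout cells against 128 to 213 in their bulk. As deposited, its 2i and knockout calls were lost without single bulk libraries, any of the 4 serum and knockout ones for 2i and either knockout one for the knockout. Centred, its 2i and knockout differences (0.88 and 2.19) were not called.

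Pou5f1, the core pluripotency factor Oct4, was the gene lowest in cells by the rule for named genes. It was at 479.7 and 559 TPM in serum bulk, 1044 in 2i bulk, and 1455 and 1703 in knockout bulk. Its plate means were 57.5 and 39.5 (serum), 146 (2i) and 147 (knockout), although it was at a TPM of at least 1 in 99% to 100% of cells on every plate. Bulk and cells did not overlap, and the order of the cultures was serum below 2i below knockout on the bulk side, with 2i and knockout cells at the same level on the other. The log2 difference was -3.41 (SE 0.21) in serum, -2.83 (SE 0.30) in 2i and -3.42 (SE 0.26) in the knockout, with adjusted p of 7.16e-06, 3.76e-04 and 7.53e-05. These 3 differences did not pass the test of a difference between cultures (adjusted p 0.203 to 0.995).

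Tmed9, a cargo receptor of the early secretory pathway, was at 152, 134, 179, 195 and 222 TPM in the 5 bulk libraries and at 2.66 and 2.69 (serum), 11.3 (2i) and 29.4 (knockout) on the plates. Only 51% and 56% of serum cells reached a TPM of 1, against 96% in 2i and 98% in the knockout. Tkt, the transketolase of the pentose phosphate pathway, was at 176 and 173 in serum bulk and 7.83 and 5.23 on the serum plates. Its difference was -4.56 (SE 0.21) in serum, -2.32 (SE 0.30) in 2i and -2.40 (SE 0.26) in the knockout. Pkm2, the pyruvate kinase of glycolysis, was at 11186 and 11112 in serum bulk, 3754 in 2i bulk, and 7749 and 8077 in knockout bulk. Its plate means all lay between 764 and 844, so they spanned a narrower range than the bulk libraries. Cdv3 was at 308 to 515 in bulk and 30.6 to 85.3 in cells, and the clone name AK048941 carried nearly the same values. BC064103 and the clone names AK187054, AK203176 and AK220016 completed the 10 named.

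**Figure D2:**
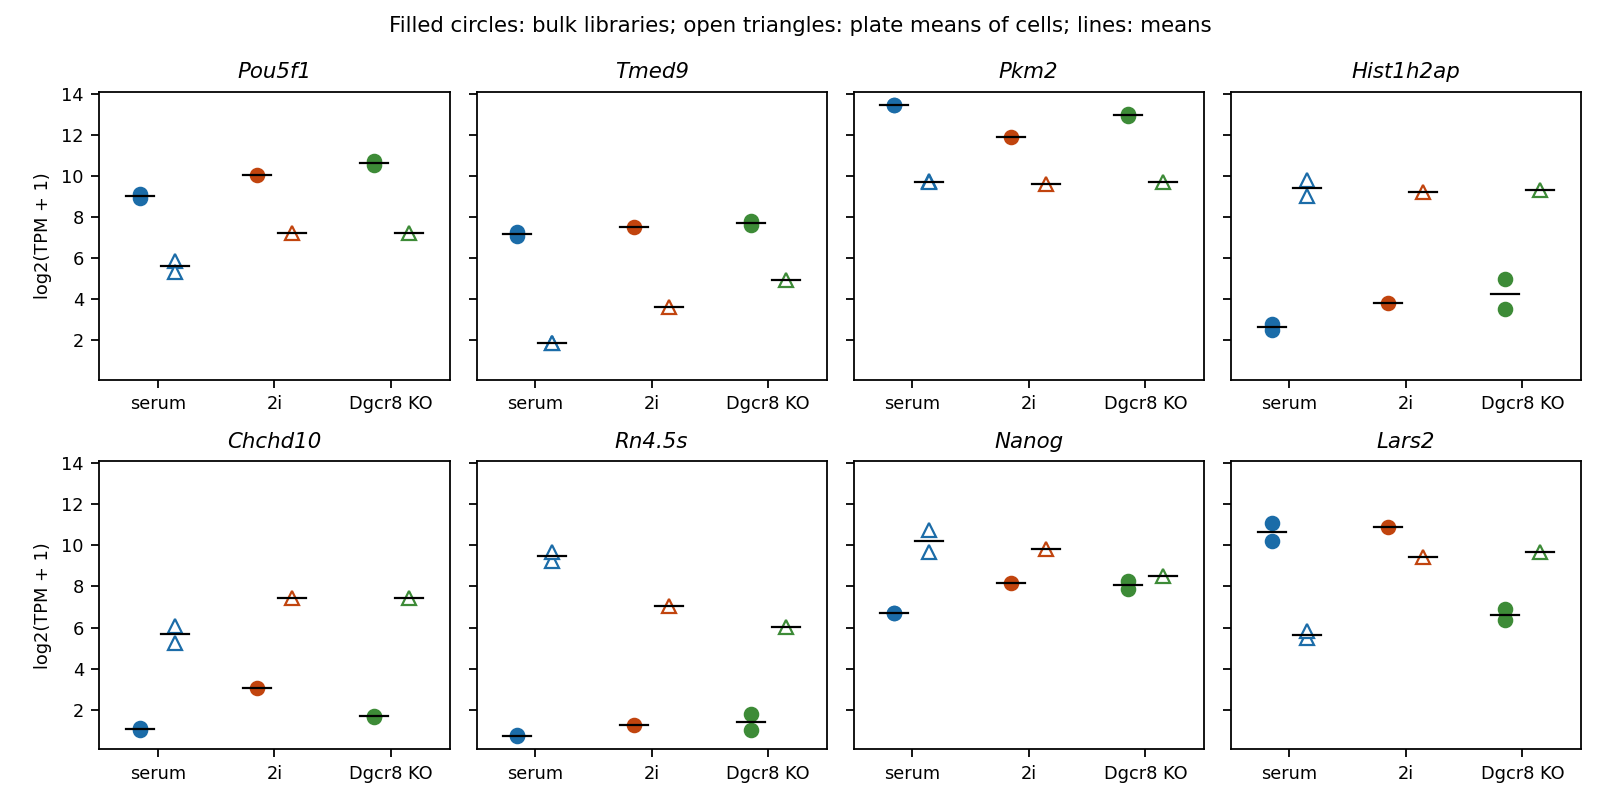
Log2(TPM + 1) of 8 genes in each of the 9 samples, by culture; filled circles are bulk libraries, open triangles plate means and lines the group means. Pou5f1, Tmed9 and Pkm2 are lower and Hist1h2ap, Chchd10 and Rn4.5s higher in cells in all 3 cultures, while Nanog and Lars2 differ between cultures.

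The difference followed the level of the gene. Among genes with a mean log2(TPM + 1) of 3 to 4 over the 9 samples, the median difference was 0.60 (serum), 1.72 (2i) and 0.91 (knockout). Among the 128 genes over 10 it was -0.68, -0.71 and -0.13. Calls moved in the same way in serum: 45.1% higher and 12.1% lower at 3 to 4, and 14.8% and 57.8% over 10. In 2i the shares were 83.4% and 0.45%, then 11.7% and 53.1%. In the knockout the shift was later and smaller: 52.7% and 2.43% at 3 to 4, 50.2% and 20.7% at 8 to 10, and 23.4% and 34.4% over 10. Actb and Gapdh, both commonly used as reference genes, were among those at the top. Actb was at 27204 and 31557 TPM in serum bulk and 7438 and 4905 on the serum plates (difference -2.28, SE 0.20), and was lower also in 2i (-2.35, SE 0.29) and the knockout (-1.94, SE 0.25). Gapdh differed by -2.10 (SE 0.16), -1.16 (SE 0.23) and -1.70 (SE 0.20). Actb, Gapdh, Pou5f1, Hspa8, Hnrnpa1, Eno1, the histones and the ribosomal protein genes have near-identical copies in the genome, among which reads may be divided. Their values are uncertain in that respect, and the part of such copies was not tested.

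**Figure D3:**
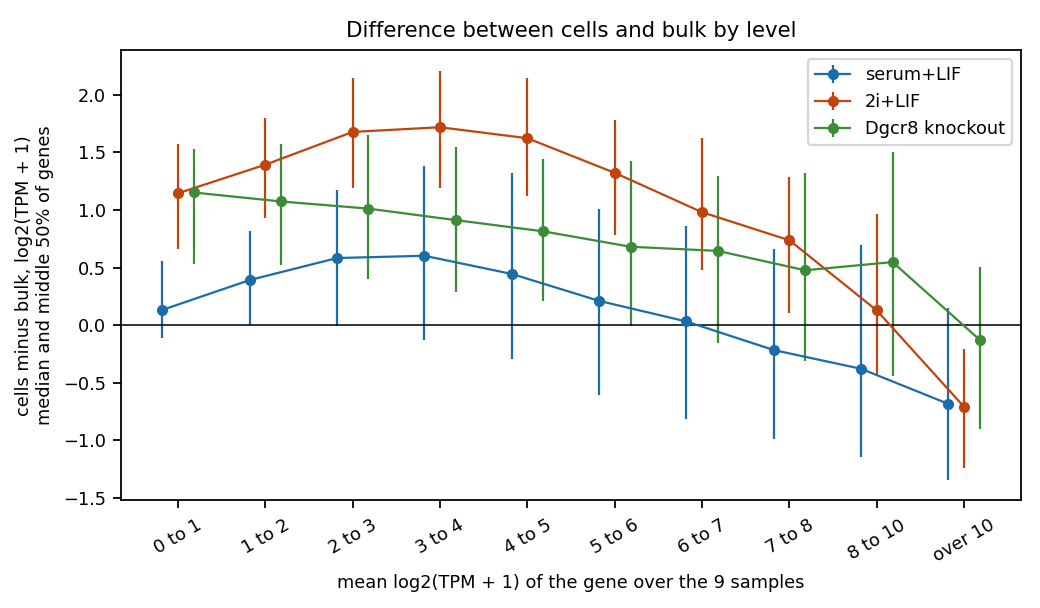
Median difference between cells and bulk (points) with the middle 50% of genes (bars), by the mean level of the gene over the 9 samples, for the 3 cultures. The medians are highest at 3 to 4 in serum (0.60) and 2i (1.72) and at 0 to 1 in the knockout (1.15), and fall to -0.68, -0.71 and -0.13 among genes over 10.

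Glycolysis, the conversion of glucose to pyruvate, leaned lower in cells in serum and the knockout. Of 18 tested genes, 11 (serum), 5 (2i) and 10 (knockout) were lower, against 12.7%, 2.00% and 4.46% of all genes. In all 3 cultures 5 were lower as deposited (27.8%, against 1.09% of all genes) and 0 higher. Centred, 11 were lower in all 3, against 10.8% of all genes. Level was not matched, and 57.8% of all genes over 10 in mean log2(TPM + 1) were lower in serum. The list medians were -0.83, 0.52 and -0.71. Eno1, the enolase, whose values the tables also list under Gm5506, was at 15114 and 12951 TPM in serum bulk, 4658 in 2i bulk, and 9859 and 10409.9 in knockout bulk. On the plates it stood at 1646, 1249.8, 1422 and 1545, without the culture order of bulk.

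Cytosolic ribosomal protein genes were lower in cells in serum (43 of 81, against 10 higher) and 2i (35 against 4). In the knockout 12 were lower and 28 higher. Of all tested genes, 12.7% (serum), 2.00% (2i) and 4.46% (knockout) were lower, and 36.7%, 76.9% and 56.5% higher. In all 3 cultures 8 were lower (9.88%, against 1.09% of all genes) and 2 higher as deposited. Centred, 28 were lower and 0 higher, against 10.8% and 2.30% of all genes. Level was not matched. Of all genes over 10 in mean log2(TPM + 1), 57.8% (serum), 53.1% (2i) and 34.4% (knockout) were lower. List medians were -0.51, -0.57 and 0.20 as deposited. The 10 calls as deposited were 5 without either knockout bulk library, 21 without serum plate 1 and 18 without serum plate 2. Rplp0, a stalk protein of the large subunit, was at 13131 and 14680.3 TPM in serum bulk and 5414 and 4851 on the plates, and was lower in the other cultures too. Rps10 went the other way, from 231 and 248 to 1098 and 1178 in serum, 278 to 1075 in 2i, and 532 and 592 to 1185 in the knockout. Centred, the 2i and knockout differences of Rps10 (0.25 and 0.06) were not called.

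Of 76 mitochondrial ribosomal protein genes, 28 were higher in cells in all 3 cultures (36.8%, against 29.7% of all genes) and 0 lower. Their medians of 0.47, 1.33 and 1.28 lay near those of all genes. Centred, 6 were higher and 3 lower, against 2.30% and 10.8% of all genes. Mrps12 was at 5.15 and 2.96 TPM in serum bulk and 75.1 and 50.2 on the plates, and Mrps24 at 3.39 and 1.87 against 36.8 and 19.8. Of 80 subunits of oxidative phosphorylation, 15 were higher in all 3 cultures (18.8%) and 0 lower as deposited, and 3 and 11 centred. Uqcrfs1, the iron-sulphur subunit of complex III, was at 3.74 to 8.27 in bulk and 36.8 to 93 in cells. Atp5c1, a subunit of the ATP synthase, was lower in 2i (-2.15, SE 0.57) and the knockout (-1.93, SE 0.49), and the knockout call was lost without either knockout bulk library (adjusted p 0.0809 and 0.0845).

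Translation factors, proteasome subunits and splicing factors each held members far apart. Of all genes, 29.7% were higher and 1.09% lower in all 3 cultures as deposited, and 2.30% and 10.8% centred. Among 40 translation factors, 11 were higher (27.5%, near the share of all genes) and 3 lower (7.5%) in all 3 cultures as deposited. Centred, the counts were 4 and 13. Without knockout bulk library 2, 9 in all were called as deposited. Eef2, the elongation factor that moves the ribosome along, fell from 1469 and 1316 TPM in serum bulk to 119 and 71.6 on the plates. Its smaller 2i difference (-1.02, SE 0.33) was lost without either knockout bulk library (adjusted p 0.0627 and 0.0630). Tpt1, a growth-related translation-associated protein, rose from 12.7 and 10.7 to 425 and 602. Of 33 proteasome subunits, 7 were higher (21.2%) and 2 lower (6.06%), with 1 and 11 centred. The 9 calls as deposited were 4 and 5 without knockout bulk library 1 and 2. Examples are Psmb4 at 13.6 to 36.8 in bulk and 97.6 to 246 in cells, and Psmd13 at 236 and 253 in serum bulk and 21.3 and 13.8 on the plates. The knockout call of Psmd13 was lost without knockout bulk library 2 (adjusted p = 0.0578). Of 44 splicing factors, 18 were higher (40.9%) and 5 lower (11.4%), with 3 and 12 centred. Snrpb, a core protein of the spliceosomal snRNPs, was at 20 and 20.3 in serum bulk and 359.8 and 231 on the plates, while Hnrnpa1 was at 4818 and 3999 against 457 and 563.

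Immediate early genes, which respond to stress and to dissociation within minutes, were higher in all 3 cultures for 4 of 16 tested (25%, below the 29.7% of all genes) and lower for 0 (1 and 3 centred). Of all genes, 1.09% were lower as deposited, and 2.30% were higher and 10.8% lower centred. Ier2 was at 0.706 to 6.44 TPM in bulk and 10.6 to 32.4 in cells, and called in each culture on both scales. Among 23 heat shock and stress genes, 8 were higher (34.8%) and 3 lower (13%), with 1 and 5 centred. Hspb1, a small heat shock protein, was at 10.8 to 60.6 in bulk and 124 to 257 in cells. Hspa8, a constitutive chaperone, went from 11474 to 22637 in bulk down to 2271 to 3982 in cells.

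Cell cycle genes went both ways. Of 34 genes of G1/S and replication, 8 were higher (23.5%, below the 29.7% of all genes) and 2 lower (5.88%, against 1.09%) in all 3 cultures as deposited. Centred, 0 were higher and 10 lower, against 2.30% and 10.8% of all genes. The 10 calls as deposited were 5 without serum bulk library 2 or knockout bulk library 2 and 6 without knockout bulk library 1. Slbp, which binds the stem-loop of histone messages, was at 86.8 to 122 TPM in the 5 bulk libraries and at 1305 and 1068 (serum), 621 (2i) and 407 (knockout) on the plates. Rrm2, a subunit of ribonucleotide reductase, was lower in cells by 2.39 (SE 0.16), 1.48 (SE 0.22) and 1.74 (SE 0.19). Mcm5, of the replicative helicase, was lower in all 3, but its 2i call was lost without any 1 of the 4 serum and knockout bulk libraries (adjusted p 0.0674 to 0.0908). Of 33 genes of G2/M and mitosis, 7 were higher (21.2%) and 0 lower (2 and 7 centred), and the 7 calls were 4 without serum bulk library 2, 3 without knockout bulk library 1 and 2 without knockout bulk library 2. The cyclin Ccna2 was at 2.27 to 3.70 in bulk and 14.3 to 35.5 in cells.

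**Figure D4:**
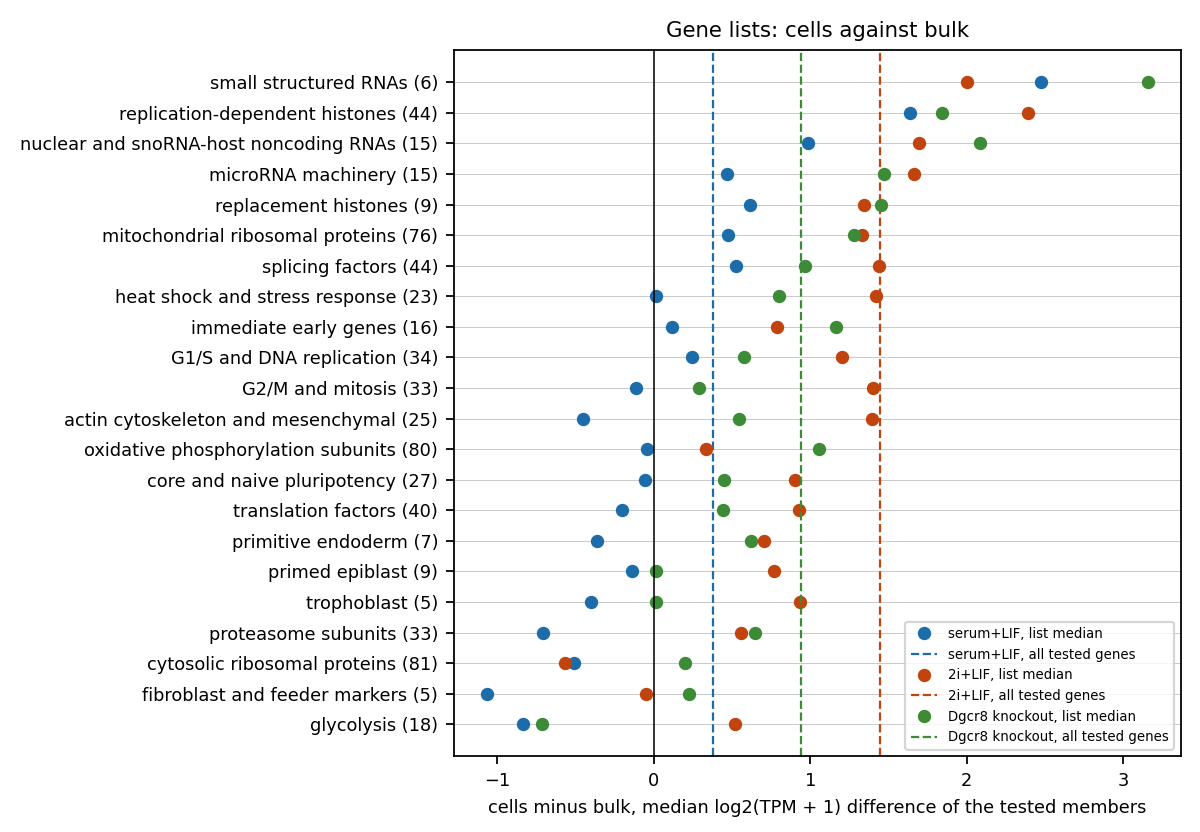
Median log2 difference between cells and bulk of the tested members (number in parentheses) of 22 gene lists with at least 5 tested genes, 1 point per culture. Dashed lines give the median of all tested genes in each culture (0.38, 1.45 and 0.94); small structured RNAs and replication-dependent histones, of which 4 of 6 and 19 of 44 passed the filter only through the cells, lie to the right of them, and glycolysis and cytosolic ribosomal proteins to the left.

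Pluripotency factors did not move as a group. Of 27 tested, 4 were higher (14.8%, against 29.7% of all genes) and 3 lower (11.1%, against 1.09%) in all 3 cultures as deposited. Centred, 1 was higher and 9 lower, against 2.30% and 10.8% of all genes. Tdgf1, the Nodal co-receptor, was lower with Pou5f1, from 1049 and 1005 TPM in serum bulk to 276 and 411 on the plates. Nr0b1, an orphan receptor of the pluripotency network, was higher, from 1.97 to 6.28 in bulk to 16.4 to 53.4 in cells. Nanog, whose values are also listed under Nanogpd, was at 105 and 103 in serum bulk, 285 in 2i bulk, and 306 and 236 in knockout bulk. On the plates it was at 819.9 and 1710.1, 918 and 368. Serum was thus lowest for Nanog in bulk, and the knockout was lowest in cells. Its difference was 3.50 (SE 0.31, adjusted p = 2.91e-05) in serum, 1.68 (SE 0.43, adjusted p = 0.00652) in 2i and 0.45 (SE 0.38, adjusted p = 0.315) in the knockout, and centring took the 2i value to -0.01. Sox2 was at 2.49 and 3.17 in serum bulk, 14.6 in 2i bulk, and 74.2 and 65.9 in knockout bulk, and at 7.69, 8.47, 41.3 and 73.7 on the plates, so its cultures kept their order. Utf1 was higher in serum (3.55, SE 0.40) and 2i (3.53, SE 0.57), and differed by 1.11 (SE 0.49) in the knockout.

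Whether the gap between cells and bulk differed between cultures was tested directly. As deposited, 46.4% of genes differed in their gap between 2i and serum, 20.8% between the knockout and serum and 5.35% between the knockout and 2i. Centred, these shares were 7.86%, 13% and 4.70%. The counts were sensitive to single libraries: 4806 genes for 2i and serum became 1432 without serum bulk library 1, 2159 for the knockout and serum became 344, and 555 for the knockout and 2i became 15. Leaving out either knockout bulk library also took them to 2574 and 2546, 960 and 746, and 55 and 56. Without serum plate 2 the first and second were 2725 and 1234, and without serum bulk library 2 the second and the last were 1346 and 21. Lars2, the mitochondrial leucyl-tRNA synthetase, had the largest change of gap. It was at 2139 and 1169.8 TPM in serum bulk, 1872 in 2i bulk, and 117 and 80.6 in knockout bulk, against 43.3 and 55.4, 681 and 815 on the plates. It was lower in cells in serum (-4.98, SE 0.30) and 2i (-1.46, SE 0.42) and higher in the knockout (3.06, SE 0.36), so the knockout was lowest in bulk and highest in cells. The gap in the knockout less that in serum was 8.04 (SE 0.47, adjusted p = 2.14e-04), and 7.64 centred. For Nanog the gap was smaller in the knockout than in serum by 3.05 (SE 0.48, adjusted p = 0.00542) and in 2i by 1.82 (SE 0.53, adjusted p = 0.0251). Anxa2, a membrane-binding annexin, was at 80.5 and 64.7 in serum bulk against 8.31 and 7.13 on the plates, and at 0.906 in 2i bulk against 7.32. Krt7, a keratin of simple epithelia and trophoblast, was at 108 and 133 in serum bulk and at 0.772 and 10.2 on the serum plates, where 4% and 11% of cells reached a TPM of 1. The 7 measured trophoblast markers summed to 139 and 159 TPM in serum bulk and 34.7 and 132 on the plates, with Krt7 itself among them. Elf5 went the other way, from 2.51 and 3.46 in serum bulk to 28.9 and 23.1 on the plates, and Plac1 was at 27.4 and 22.5 in bulk and 4.33 and 98.6 on the plates. Of the defining factors Cdx2, Eomes and Hand1, none passed 0.585 TPM in serum bulk and all were at 0 on the serum plates. Their part in the difference was not tested.

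A few gaps rested on 1 cell. Gm4340, of a gene family active at the 2-cell stage, was at 20.8 and 17.9 TPM in knockout bulk and averaged 466 over the 84 knockout cells. One cell, at 39158 TPM, held 99.95% of that sum, and without it the mean over the other 83 was 0.223. That cell was also the highest for Gm2022, of the same stage (13901 TPM, 99.9% of the sum), whose mean went from 166 to 0.238. Zscan4c and Zscan4f, which mark the same state, were at 11 and 11.2 and at 17.9 and 11 in knockout bulk and at 0 in every plate. Cd274, the ligand PD-L1, averaged 44.9 over 2i cells and 0.240 without 1 cell at 4194 TPM. Such genes were rare: a single cell held more than 50% of the sum for 14 of the 5856 genes called higher in the knockout, 4 of 7968 in 2i, and 11 and 1 of 3801 on the serum plates.

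Detection in single cells followed the bulk level. Genes at 1 to 3 TPM in bulk were at a TPM of at least 1 in a median of 57.9% of serum cells (2434 genes), 80.9% of 2i cells (2829 genes) and 48.8% of knockout cells (2775 genes). At 10 to 30 TPM the medians were 98.4%, 100% and 90.5%. Of these mid-level genes only 1 of 1165 in serum, 1 of 1320 in 2i and 3 of 1982 in the knockout were in no cell. Of the genes at 0 in bulk, 89.97% (serum), 76.4% (2i) and 79.98% (knockout) were in no cell either.

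ChIP-seq of the same cultures gave a readout that entered neither side. Counts of RNA polymerase II and H3K4me3, the mark of active promoters, were taken in a window of 1000 bases per gene, scaled to the summed counts of all windows (CPM), with 1 library per culture and so no replicate check. Across the 9746 tested genes with a window, RNA polymerase II correlated slightly better with plate means than with bulk: Spearman's rho was 0.39 against 0.36 in serum, 0.39 against 0.35 in 2i and 0.34 against 0.29 in the knockout. H3K4me3 gave 0.33 against 0.31, 0.37 against 0.31 and 0.29 against 0.24. The input gave at most 0.09 on either side.

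At like bulk levels up to 30 TPM, genes higher in cells by the centred call had a higher median RNA polymerase II signal. At a like bulk level that call splits genes largely by plate mean, with which RNA polymerase II correlates across genes. This order can thus follow from the split and is no independent support for either side. Among genes at 1 to 3 TPM in serum bulk, the median was 63.7 CPM for the 531 genes higher in cells, 48.6 for the 1140 not called and 38.1 for the 596 lower. Median bulk levels of these groups were 1.70, 1.66 and 1.82 TPM, and median input was 48.1 CPM in each. The corresponding values were 65.4, 48.8 and 33.3 CPM for 2i, and 56.4, 39.2 and 33.7 CPM for knockout genes. The order held at 3 to 10 and 10 to 30 TPM in all 3 cultures. It did not hold at 30 to 100 TPM in serum, where the 86 genes higher in cells had 58.8 CPM against 76.6 for those lower, nor over 100 TPM in serum and the knockout. Nor did it hold at 30 to 100 TPM in 2i, where the 14 genes higher in cells had 51.6 CPM against 67.6 for those lower. Over 100 TPM in 2i it failed too, with 78.7 CPM for the 179 genes not called and 96.5 for the 537 lower. The 218 genes with a window among the 238 had a median of 82.5, 77.6 and 76.3 CPM in serum, 2i and the knockout, against 53.2, 52.1 and 51.5 over all tested genes. The 100 genes with a window among the 113 lower in cells, which have higher bulk levels, had 117.6, 120.3 and 113 CPM, above both.

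Windows of single named genes went both ways. In the window of Hist1h2an (chr13:21878587-21879587, minus strand, mm9, as deposited), listed at 0 in bulk RNA, RNA polymerase II had 1319, 565 and 1593 counts in serum, 2i and the knockout (867, 626 and 976 CPM), against 21, 21 and 28 in input. In that of Hist1h3b (chr13:23843748-23844748, plus strand) it had 1267, 613 and 1456 counts against 20, 18 and 7. Hist1h2ap (chr13:21901835-21902835, plus strand) had 1429, 1277 and 1550 CPM. Histone genes lie in dense clusters, so a window can hold reads of a neighbour. Other genes higher in cells as deposited had less RNA polymerase II. For 2610028H24Rik it was 9.20, 8.87 and 8.58 CPM, below 35, 35.6 and 43.7 in input (14, 8 and 14 counts against 16, 20 and 21). For Park2 it was 14.5, 11.1 and 20.2, below 52.4, 48 and 52 in input (22, 10 and 33 counts against 24, 27 and 25). Both windows thus rest on few counts, and in the knockout the Park2 count was above that of input. Chchd10 had 51.3, 71 and 48.4, against 39.3, 64 and 43.7 in input. Pou5f1 (chr17:35645251-35646251, plus strand), lower in cells, had 89.4, 85.4 and 61.9 CPM, above the median of all tested genes in each culture. Tmed9 (chr13:55693995-55694995, plus strand) had 89.4, 64.3 and 35.5, against 52.4, 65.8 and 39.5 in input.

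**Figure D5:**
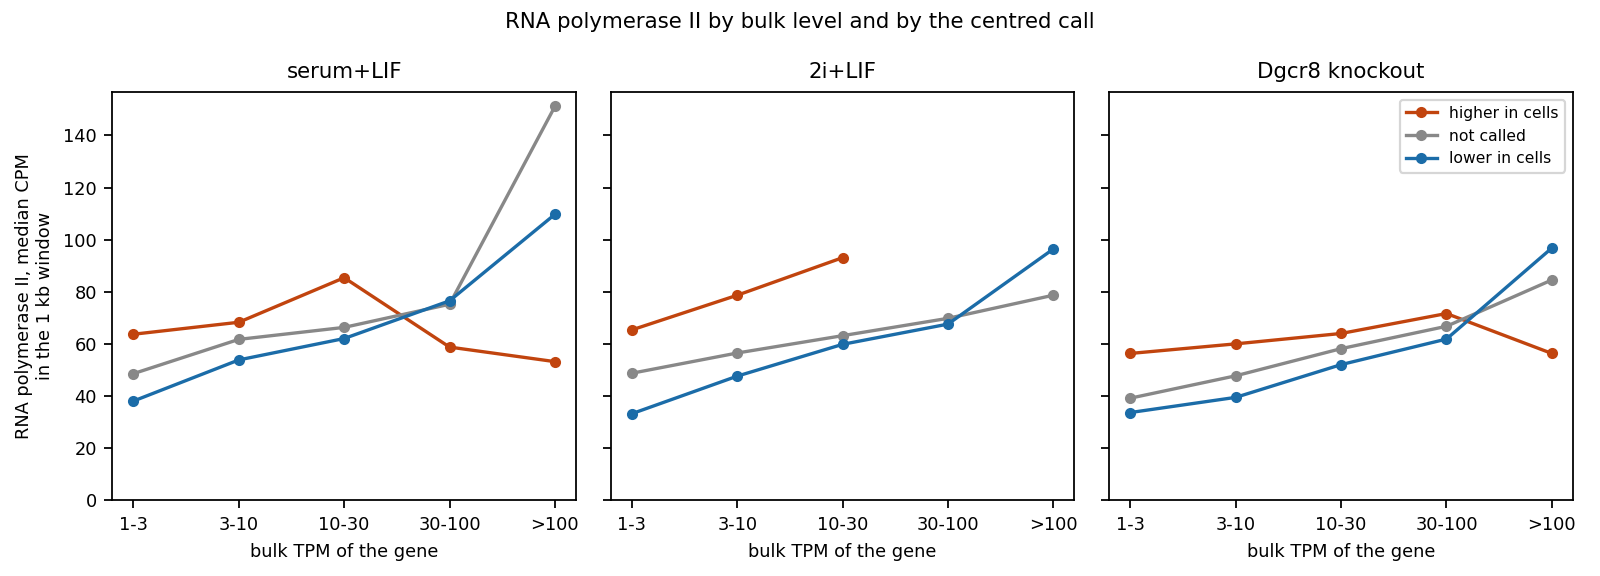
Median RNA polymerase II CPM in the 1 kb gene window by bulk TPM of the gene (x axis, groups of under 20 genes left out), split by the centred call, for the 3 cultures. At a like bulk level this call splits genes largely by plate mean. At 1 to 3 TPM the genes higher in cells lie above those not called and those lower (63.7, 48.6 and 38.1 CPM in serum), and the order is lost above 30 TPM in serum and above 100 TPM in the knockout. In 2i the genes higher in cells number under 20 above 30 TPM and are not drawn there. Over 100 TPM in 2i the order is lost too, with those not called below those lower (78.7 and 96.5 CPM).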

How the data were processed

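Values in the deposited RNA tables are the natural log of TPM + 1: reversing it gives column sums of 999569 to 1212160. For ChIP, the authors deposited whole-number counts, 1 window of 1000 bases for each gene. Bowtie, RSEM and build mm9 are named, without versions or roles, per the submitters' processing notes, and no filter is stated. The 20975 names in both tables were used. Names turned into dates were left out (26 in the bulk table and 51 in the cell table), and 1 name was kept of names with identical values (1212 dropped), leaving 10366 genes whose mean TPM reached 1. All columns of these tables were mapped to a label, and neural precursor cells were not used.

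Cells of a plate were averaged as TPM, and 5 bulk libraries and 4 plate means were fitted with limma 3.58.1 (R 4.3.3, with trend) on log2(TPM + 1), as 6 group means with 3 residual degrees of freedom (prior 6.19). Calls had a Benjamini-Hochberg adjusted p under 0.05 over all genes. The pseudocount of 1 understates changes of low genes. Groups with a single sample borrow their spread from the rest. The fit was tested on simulated data. Alternatives were other pseudocounts, filters, scalings and averages, a plate-number block and leaving out each library or plate. Named genes were, in each direction, the 10 called in all 3 cultures with the largest smallest difference, 5 per difference between cultures, the 2 members of each list with the highest and the 2 with the lowest mean difference, Dgcr8, Pou5f1, Sox2, Nanog, Actb and Gapdh, and up to 5 names seen on each side only. Members and lists were chosen with earlier results of these data known. Gene length and GC content were not analysed here.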

Additional observations from a re-analysis of the deposited data

Results flagged for a closer look

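Genes named by rule whose gap between cells and bulk differed between cultures by a direct test (limma, adjusted p under 0.05, as deposited) are given here as log2 values. The gap in 2i less that in serum was lowest for AK204918 (-6.93), 2610028H24Rik (-4.52), Park2 (-4.47), Cyp2e1 (-4.19) and Phkg1 (-4.02). It was highest for Krt7 (5.69), AB352963 (5.60), M13188 (5.43), Anxa2 (5.2) and Cd274 (4.80). Centred, these kept their direction, and only Krt7 missed the threshold (adjusted p = 0.0787).

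The gap in the knockout less that in serum was lowest for AK204918 (-7.45), AK205379 (-4.68), Kbtbd10 (-4.61), Hist1h2ag (-4.60) and Phkg1 (-4.56). It was highest for Lars2 (8.04), Gm2022 (5.80), Gm4340 (5.19), AK144265 (4.48) and Gm10136 (4.42). The gap in the knockout less that in 2i was lowest for Cd274 (-5.14), AK217941 (-4.58), DQ711019 (-4.21), lpr (-4.16) and Ly6a (-4.02). It was highest for Gm2022 (5.13), Gm4340 (4.75), Lars2 (4.52), AK008665 (3.92) and 2210409E12Rik (3.49). AK204918, AB352963, AK217941, DQ711019, lpr, Gm2022, Gm4340, AK008665, Hist1h2ag and Ly6a are listed at 0, or within rounding of it, on 1 side of at least 1 culture, so their sizes depend on the pseudocount. The values of Gm2022, Gm4340 and Cd274 rest on 1 cell each. A single cell also held more than 50% of the summed TPM of Krt7 on each serum plate, and of Phkg1 and Ly6a on serum plate 1.

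Of the genes always named, Sox2 differed between the knockout and serum (-1.17), Nanog between 2i and serum (-1.82) and between the knockout and serum (-3.05), and Gapdh between 2i and serum (0.94, or -0.14 centred). Nothing was weighed for these differences.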

How the results depend on the processing

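Counts of genes called (as deposited 5115 in serum, 8175 in 2i, 6318 in the knockout and 3191 in all 3 cultures) moved with the filter and the scaling. With a mean TPM of at least 10, fewer genes being tested, they were 2709, 3317, 2530 and 1497. Centring gave 2717 in 2i and 1357 in all 3 cultures. Quantile normalisation gave 1639 in 2i, 4114 in the knockout and 985 in all 3, of which 375 were higher and 610 lower. Averaging cells as mean log values gave 1509 in all 3. The same with centring, chosen after seeing the data, gave 3470 in 2i and 1551 in all 3. Gaps differing between 2i and serum (4806) numbered 2880 with a pseudocount of 0.1, 2241 with the TPM filter, 815 centred, 592 after quantile normalisation and 1155 with centred mean log values. Those between the knockout and serum (2159) numbered 991 and 4082 with pseudocounts of 0.1 and 5, 3297 without a filter, 1101 with the TPM filter, 1343 centred, 1232 after quantile normalisation and 1351 with mean log values. Those between the knockout and 2i (555) numbered 309 and 1530 with the same pseudocounts, 1661 without a filter, 3333 with mean log values, 1097 with those centred and 354 without limma's trend. The cause was not tested for these shifts. Leaving out 1 library or plate gave 3394 to 4614 calls in serum, 7595 to 8306 in 2i, 4493 to 6466 in the knockout and 2028 to 3122 in all 3, and 1432 to 5233, 344 to 2232 and 15 to 745 for the gaps. Serum samples of the same number deviated together only weakly (r = 0.079). That does not settle whether they are pairs, and they were fitted as unpaired. A fit with the replicate number as a block raised every count, the last to 1486, and left the other 6 within 1.5 times. With a pseudocount of 0.1, r of bulk and cells was 0.854, 0.906 and 0.866. Genes at 1 to 3 TPM in bulk were above 0 in a median of 72.7%, 85.1% and 54.8% of cells, and at 5 TPM or more in 18.03%, 48.9% and 27.4%.

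Named genes whose sign turned did so in 2i when centred for Dusp1 (-0.057), Sdha (-1.64), Sox2 (-0.25), Nanog (-0.011) and Gm2022 (-1.28), and in the knockout for Sox2 (-0.94) and Anxa2 (-0.34). Quantile normalisation turned Sdha (-1.04) and Sox2 (-0.21) in 2i. Mean log values turned Gm4340 (-4.03), Gm2022 (-1.59), M13188 (-0.51) and Anxa2 (-0.24) in the knockout and Ly6a in serum (-0.18) and 2i (-0.95). Centred as well, they gave -4.10, -1.66, -0.57 and -0.30 for the first 4 and -0.25 and -2.07 for Ly6a. They also turned Dusp1 (-0.42), Sdha (-1.19), Krt7 (-1.21), Anxa2 (-0.64), Cd274 (-0.87), Gm2022 (-0.97), AK217941 (-0.17) and lpr (-0.30) in 2i.

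Read depth is not known from TPM, 2i has 1 library a side, and 1 plate stands for the knockout cells, so the fit takes their spread from the other groups.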
